A study of Homo sapiens with 16 samples.

Results

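RNA from untreated U2OS cells carrying a short hairpin against PIP4K2B was compared with RNA from untreated U2OS cells carrying a short hairpin against PIP4K2A. U2OS is an established human osteosarcoma line, labelled by cell type as a sarcoma line. The comparison holds the 4 libraries whose labels name 1 of these hairpins and the control treatment, 2 per hairpin, out of 16 in the series. The other groups carry an empty vector or both hairpins, and each of the 4 genotypes was also collected 6 h after UV-C at 30 J/m2. All knockdown lines were stable and were kept in medium with puromycin. No empty-vector library enters the comparison, so a difference between the lines does not by itself say which line moved; values of the double knockdown and of the vector are set beside it for that purpose. The labels name 1 hairpin per gene; they give neither its sequence nor whether a line is 1 clone or a pool. They also do not say if replicates were grown separately, and the p-values then reflect library-to-library spread that may be technical.

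PIP4K2A, PIP4K2B and PIP4K2C encode the alpha, beta and gamma forms of phosphatidylinositol 5-phosphate 4-kinase. These enzymes phosphorylate PtdIns5P, a scarce inositol lipid, at the 4 position of the ring and make PtdIns(4,5)P2, whereas PIP5K enzymes reach the same product from PtdIns4P. The alpha form is the most active in vitro, the beta form is partly nuclear, and alpha and beta can form dimers with each other. PtdIns5P rises in nuclei under stress such as UV, and the nuclear pool has been studied for its binding to chromatin and transcription factors, which is the background of a comparison of the beta with the alpha knockdown.

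The PIP4K2B knockdown libraries held 33.0 and 28.4 M expected counts and the PIP4K2A knockdown libraries 31.9 and 28.0 M. Mitochondrial transcripts took 2.61% and 2.73% of the counts in the PIP4K2B knockdown, against 3.06% and 2.81% in the PIP4K2A knockdown. Across genes, replicate libraries correlated at 0.9876 for the PIP4K2B knockdown and at 0.9877 for the PIP4K2A knockdown (Pearson, on log2 counts-per-million values), and libraries of different hairpins at 0.9828 to 0.9852. Levels below are in counts-per-million units (CPM) of the library total, with no further scaling, unless another unit is named, and a gene was called at an adjusted p under 0.05 in edgeR's quasi-likelihood test over 21098 genes. In the same 4 libraries VIM, an intermediate filament of mesenchymal cells, stood at 2135 and 1907 CPM in the PIP4K2B knockdown and at 2134 and 2072 CPM in the PIP4K2A knockdown. The summed blood cell markers were at 8.08 and 9.37 CPM against 8.13 and 7.94 CPM, with CD3E and LYZ among those at 0. SP7, a defining osteoblast transcription factor, did not exceed 0.107 CPM in any of the 4 libraries. KRT8, a keratin of simple epithelia, was present at 275 and 229 CPM in the PIP4K2B knockdown and at 268 and 316 CPM in the PIP4K2A knockdown. The line thus expressed this keratin beside vimentin, and next to no SP7.

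Each line was low for the gene its hairpin names. PIP4K2B (chromosome 17, 38765689 to 38800126, minus strand, GRCh38) stood at 26.6 and 23.7 CPM in the PIP4K2B knockdown and at 96.9 and 98.3 CPM in the PIP4K2A knockdown. Its log2 fold change was -1.89 ± 0.11 (SE, n = 2 libraries per line; adjusted p = 6.67e-06, edgeR). PIP4K2A (chromosome 10, 22534849 to 22714555, minus strand) stood at 56.3 and 60.6 CPM in the PIP4K2B knockdown and at 18.2 and 15.5 CPM in the PIP4K2A knockdown, a log2 fold change of 1.86 ± 0.10 (adjusted p = 2.55e-06, edgeR). The untargeted gene of each line lay near the vector library, which had 107 CPM of PIP4K2B and 62.9 CPM of PIP4K2A. The double knockdown had 17.3 and 19.3 CPM of PIP4K2B and 22.9 and 22.9 CPM of PIP4K2A.

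PIP4K2C, the gamma form, which no hairpin targets, was at 65.8 and 69.6 CPM in the PIP4K2B knockdown, 82.8 and 77.2 CPM in the PIP4K2A knockdown, 101 and 108 CPM in the double knockdown and 56.9 CPM in the vector library. The single-knockdown lines did not overlap, but the log2 fold change of -0.18 ± 0.10 did not pass (adjusted p = 0.49, edgeR). On the length-corrected transcripts-per-million scale (TPM), on which genes can be compared, the deposited means of PIP4K2A, PIP4K2B and PIP4K2C were 13.2, 3.36 and 15.9 TPM in the PIP4K2B knockdown, against 3.80, 13.5 and 20.5 TPM in the PIP4K2A knockdown. PIP4K2C was thus the most abundant of the family's transcripts in both lines. Of the 8 PIP4K and PIP5K genes tested, none but the targeted pair passed, and 0 of 46 other phosphoinositide kinases and phosphatases passed. With 2.68% of all genes called, 0 calls in a list of 46 is near the share over all genes.

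**Figure D1:**
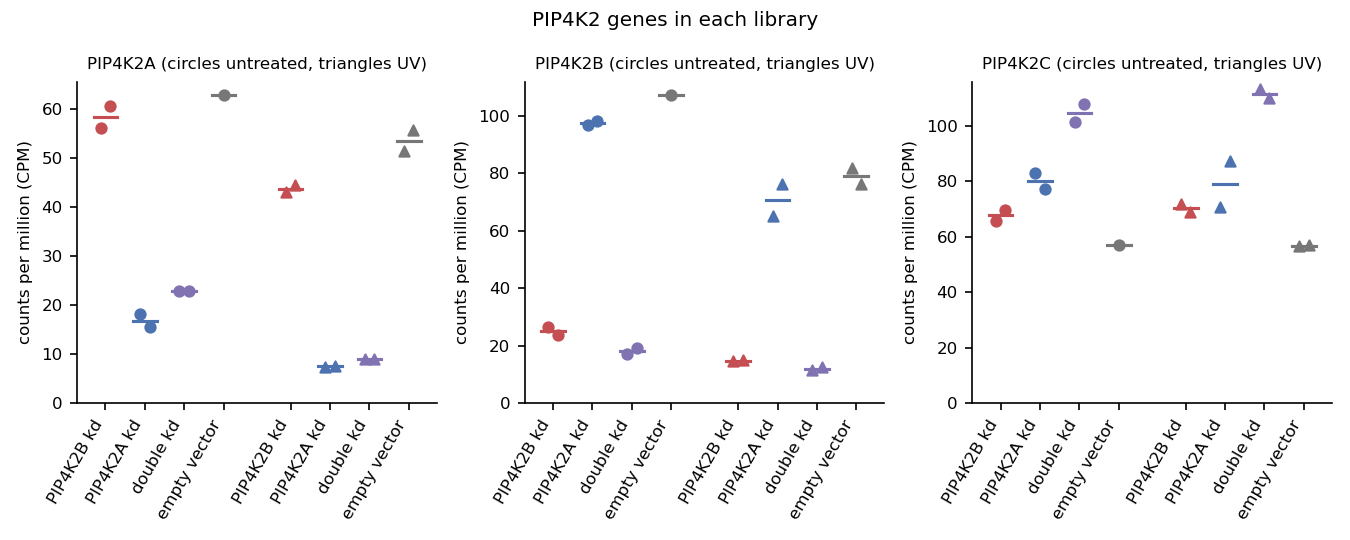
CPM (linear axis) of PIP4K2A, PIP4K2B and PIP4K2C in each library of the PIP4K2B knockdown, PIP4K2A knockdown, double knockdown and empty vector, untreated (circles) and after UV (triangles); short lines are group means, and the untreated vector has 1 library because the other, of 1.28 M counts, was not used. PIP4K2B is low in the PIP4K2B knockdown (26.6 and 23.7 CPM untreated) and PIP4K2A in the PIP4K2A knockdown (18.2 and 15.5 CPM), while PIP4K2C is highest in the double knockdown (101 and 108 CPM).

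The lines differed in 566 of 21098 genes (2.68%; edgeR). In the PIP4K2B knockdown 248 were higher (1.18%) and 318 lower (1.51%) than in the PIP4K2A knockdown; in DESeq2 the balance turned, with 389 higher and 349 lower. The libraries of the lines did not overlap for any of the 566, which holds for 43.6% of all genes tested. Most of the differences were small: the median size was 0.75 on the log2 scale, the smallest 0.35, and 178 exceeded 1, of which 48 were higher and 130 lower in the PIP4K2B knockdown. Of the 566, 505 were protein-coding and 29 were long intergenic RNAs. The count depended on the libraries: 121 genes were called without PIP4K2B knockdown replicate 1, 140 without PIP4K2B replicate 2, 197 without PIP4K2A replicate 1 and 273 without PIP4K2A replicate 2, 1507 without both PIP4K2A knockdown UV libraries, 984 with no filter on low counts, and 3 when all 16 libraries shared the estimate of the spread. The 16 include empty-vector untreated replicate 1, which held 1.28 M counts and correlated with its replicate at 0.53 (Pearson, log2 CPM). With the other 15 libraries 713 genes were called. When libraries were scaled on ribosomal protein genes the median of all genes moved to -0.14, and 72 genes were higher and 432 lower.

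Among called genes averaging at least 5 CPM over the 4 libraries, to which the order of size below applies, the largest rise in the PIP4K2B knockdown was that of COL3A1, the chain of type III collagen. It stood at 78.7 and 78.4 CPM in the PIP4K2B knockdown and at 20.5 and 18.1 CPM in the PIP4K2A knockdown, a log2 fold change of 2.09 ± 0.14 (SE; adjusted p = 1.41e-05, edgeR). The double knockdown (43.3 and 41.4 CPM) and the vector library (52.0 CPM) lay between the single lines. NOTCH3, a receptor for ligands on neighbouring cells, had 94.0 and 97.8 CPM in the PIP4K2B knockdown and 34.7 and 40.9 CPM in the PIP4K2A knockdown (log2 fold change 1.40 ± 0.13, adjusted p = 0.000198, edgeR). Here the vector library was above both lines, at 174 CPM, and the double knockdown was at 51.2 and 50.7 CPM.

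STARD7, which carries phosphatidylcholine to mitochondria, had 355 and 348 CPM in the PIP4K2B knockdown and 161 and 140 CPM in the PIP4K2A knockdown (log2 fold change 1.29 ± 0.13, adjusted p = 0.000435, edgeR). CALU, a calcium-binding protein of the secretory pathway, had 299 and 298 CPM in the PIP4K2B knockdown and 152 and 129 CPM in the PIP4K2A knockdown (log2 fold change 1.15 ± 0.10, adjusted p = 0.000118, edgeR). For these 2 genes the PIP4K2B knockdown was near the vector library (303 CPM of STARD7, 279 CPM of CALU), and the double knockdown was near the PIP4K2A knockdown (155 and 144 CPM of STARD7, 171 and 162 CPM of CALU). SNAPC1, a subunit of the complex that starts transcription of small nuclear RNA genes, had 185 and 143 CPM in the PIP4K2B knockdown and 74.2 and 62.7 CPM in the PIP4K2A knockdown; the double knockdown (66.1 and 63.8 CPM) and the vector (92.7 CPM) were closer to the PIP4K2A knockdown. Its log2 fold change was 1.32 ± 0.15 (adjusted p = 0.000974, edgeR).

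The other rises among the 15 largest were those of 3 histone genes, described below, PIP4K2A itself, and LINC01029, GSG1, CHRNB1, TNNC1, SLC26A11 and SNX7, with log2 fold changes of 1.07 to 1.21. LINC01029, a long intergenic RNA, was at 70.8 and 80.6 CPM in the PIP4K2B knockdown, 36.4 and 31.9 CPM in the PIP4K2A knockdown, 12.7 and 11.1 CPM in the double knockdown and 16.9 CPM in the vector. It was thus highest in the PIP4K2B knockdown of all these libraries, and the PIP4K2A knockdown also lay above the vector. CHRNB1 encodes a subunit of the muscle acetylcholine receptor, TNNC1 the calcium-binding troponin of heart and slow muscle, SLC26A11 an anion transporter and SNX7 a sorting nexin of endosomes. GSG1 lost its call without PIP4K2A knockdown replicate 1 and TNNC1 without PIP4K2B replicate 1. The histone H2AC8 also lost its call with 1 library left out.

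The largest falls exceeded the largest rises in size. NLRP2, a cytoplasmic NOD-like receptor, was at 0.486 and 0.563 CPM in the PIP4K2B knockdown and at 10.98 and 11.6 CPM in the PIP4K2A knockdown, a log2 fold change of -4.36 ± 0.17 (adjusted p = 2.95e-07, edgeR). GTSF1, a zinc finger protein of the piRNA pathway in germ cells, was at 1.52 and 1.79 CPM in the PIP4K2B knockdown and at 25.4 and 22.5 CPM in the PIP4K2A knockdown (log2 fold change -3.79 ± 0.15, adjusted p = 2.95e-07, edgeR). For both genes the vector lay between the lines, at 5.42 CPM of NLRP2 and 9.85 CPM of GTSF1, and the double knockdown was above the PIP4K2A knockdown, at 19.8 and 20.1 CPM of NLRP2 and 35.5 and 29.4 CPM of GTSF1. Thus the line with both hairpins did not have the low level of the line with the PIP4K2B hairpin alone.

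ADD2, the beta subunit of the membrane-skeleton protein adducin, followed the same order, with 2.79 and 2.18 CPM in the PIP4K2B knockdown, 18.9 and 16.7 CPM in the PIP4K2A knockdown, 30.3 and 29.8 CPM in the double knockdown and 5.14 CPM in the vector. HTR2A, a serotonin receptor, was at 2.00 and 1.69 CPM in the PIP4K2B knockdown, 13.4 and 11.6 CPM in the PIP4K2A knockdown, 37.5 and 31.3 CPM in the double knockdown and 18.4 CPM in the vector. MOB3B, a MOB family protein, was at 21.8 and 24.7 CPM in the PIP4K2B knockdown, 65.2 and 61.3 CPM in the PIP4K2A knockdown, 232 and 207 CPM in the double knockdown and 34.4 CPM in the vector. The log2 fold changes between the single lines were -2.77 ± 0.19, -2.69 ± 0.16 and -1.38 ± 0.10 (adjusted p = 2.49e-05, 8.34e-06 and 2.9e-05, edgeR).

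MMP13 and LAMA3 had another order, with the double knockdown and the vector both well under the PIP4K2A knockdown. MMP13, a collagenase, was at 2.00 and 1.72 CPM in the PIP4K2B knockdown, 14.99 and 12.5 CPM in the PIP4K2A knockdown, 4.20 and 3.99 CPM in the double knockdown and 3.11 CPM in the vector (log2 fold change of the single lines -2.81 ± 0.15, adjusted p = 2.55e-06, edgeR). LAMA3, a laminin chain of epithelial basement membranes, was at 2.85 and 2.04 CPM in the PIP4K2B knockdown, 15.3 and 13.2 CPM in the PIP4K2A knockdown, 3.57 and 3.06 CPM in the double knockdown and 1.43 CPM in the vector (log2 fold change -2.47 ± 0.17, adjusted p = 2.48e-05, edgeR). C3, the central complement component, was at 5.10 and 4.54 CPM in the PIP4K2B knockdown, 12.3 and 14.8 CPM in the PIP4K2A knockdown, 1.79 and 2.44 CPM in the double knockdown and 1.22 CPM in the vector. For these 3 genes the PIP4K2A knockdown was the highest of the 4 genotypes in untreated cells.

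The remaining falls, from -1.36 to -2.09 on the log2 scale besides PIP4K2B itself, were those of NTRK3, the neurotrophin 3 receptor, ODAPH, a phosphoprotein of tooth enamel, TSPAN7, a tetraspanin, LINC00665, the transcription factor RUNX3 and PODNL1, a small leucine-rich matrix protein. Of the 15 falls, C3 (log2 fold change -1.43 ± 0.23, adjusted p = 0.00763, edgeR) lost its call without PIP4K2A knockdown replicate 2 or either PIP4K2B replicate, at adjusted p from 0.066 to 0.108.

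**Figure D2:**
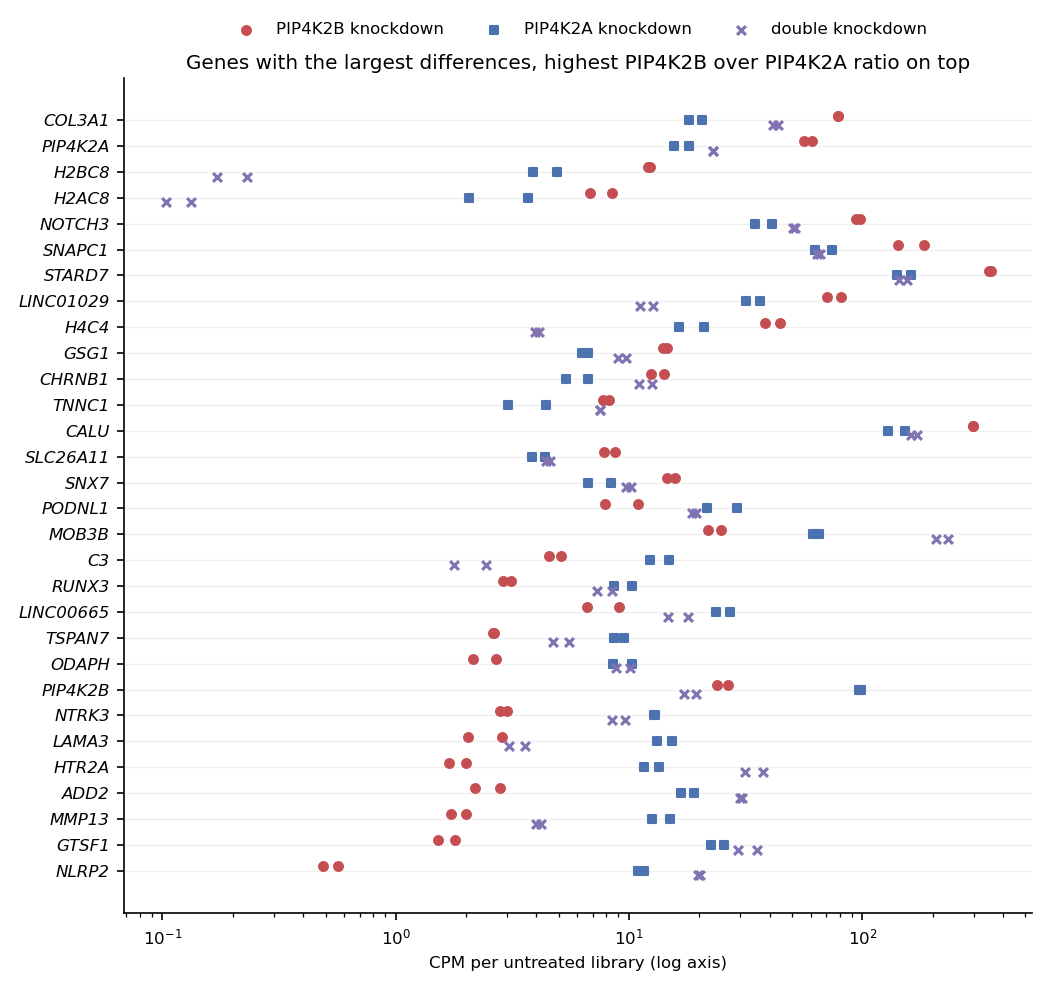
CPM (log axis) in each untreated library for the 15 genes with the largest rises and the 15 with the largest falls in the PIP4K2B knockdown (called, averaging at least 5 CPM), sorted by ratio; red circles are the PIP4K2B knockdown, blue squares the PIP4K2A knockdown and purple crosses the double knockdown. The red and blue points never overlap, as the naming rule required; the crosses lie beyond the blue squares for NLRP2 (19.8 and 20.1 CPM) and far to the left of both lines for H2BC8 (0.231 and 0.172 CPM).

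The 3 histone genes lie on chromosome 6 in the large histone cluster. H2BC8, an H2B gene, was at 12.02 and 12.2 CPM in the PIP4K2B knockdown and at 3.86 and 4.89 CPM in the PIP4K2A knockdown (log2 fold change 1.53 ± 0.19, adjusted p = 0.00142, edgeR). H2AC8, an H2A gene, was at 6.80 and 8.44 CPM in the PIP4K2B knockdown and at 2.07 and 3.68 CPM in the PIP4K2A knockdown (1.47 ± 0.28, adjusted p = 0.018). H4C4, an H4 gene, was at 38.4 and 44.3 CPM in the PIP4K2B knockdown and at 16.4 and 20.9 CPM in the PIP4K2A knockdown (1.21 ± 0.15, adjusted p = 0.00135). In the double knockdown they were at 0.231 and 0.172 CPM, 0.132 and 0.103 CPM, and 3.93 and 4.10 CPM, and in the vector at 0.245, 0.140 and 0.419 CPM, so both single lines lay above the double knockdown and the vector.

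H2AC8 and H2BC8 start back to back, 232 bases apart, and that interval (chr6:26216689-26216920, plus strand) is the upstream region of both. It is shown because the paired genes were high in the same libraries, and the upstream 250 bases of H4C4 (chr6:26189113-26189362, minus strand) for comparison. Both are from RefSeq on GRCh38.p14, and capitals mark CCAAT and TATAAA on either strand (ATTGG and TTTATA on the printed one).
H2AC8 and H2BC8: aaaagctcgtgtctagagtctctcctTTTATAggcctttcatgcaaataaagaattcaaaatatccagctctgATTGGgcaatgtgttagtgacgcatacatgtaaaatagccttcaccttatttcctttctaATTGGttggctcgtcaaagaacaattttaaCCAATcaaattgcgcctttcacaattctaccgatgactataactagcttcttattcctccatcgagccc
H4C4: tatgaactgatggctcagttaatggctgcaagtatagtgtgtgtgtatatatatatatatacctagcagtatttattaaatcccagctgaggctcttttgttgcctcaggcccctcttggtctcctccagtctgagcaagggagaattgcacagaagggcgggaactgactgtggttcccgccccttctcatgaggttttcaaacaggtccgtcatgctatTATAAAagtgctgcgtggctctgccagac
The shared interval holds 3 CCAAT and 1 TATAAA matches and the H4C4 region 0 and 1. Among the 250 bases upstream of 35116 RefSeq gene starts, 32% hold a CCAAT and 10.7% a TATAAA on either strand.

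Of 34 replication-dependent histone genes tested, 4 rose and 0 fell, beside 1.18% of all genes called higher, and the list's median log2 fold change of 0.25 compares with 0.01 over all genes tested, with an SD of 0.24 over the library pairs. The fourth, H2AC6, was at 240 and 257 CPM in the PIP4K2B knockdown and 169 and 206 CPM in the PIP4K2A knockdown (0.47 ± 0.11, adjusted p = 0.0407, edgeR). Histone genes are near-identical copies, so the estimated counts of a single gene are uncertain. H2AC8 lost its call without PIP4K2A knockdown replicate 1 or either PIP4K2B replicate, and H2AC6 with 1 library left out, with only the 4 libraries fitted (adjusted p = 0.0575) or with scaling on ribosomal protein genes (adjusted p = 0.18); with 1 library left out the adjusted p of the 2 ran from 0.078 to 0.257.

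Genes of the extracellular matrix moved in both directions. Of 37 collagens and other matrix genes 3 rose and 6 fell, beside 1.18% of all genes called higher and 1.51% called lower. SPARC, a matrix protein that binds collagen, rose with COL3A1, at 994 and 1009 CPM in the PIP4K2B knockdown and 713 and 678 CPM in the PIP4K2A knockdown (log2 fold change 0.59 ± 0.09, adjusted p = 0.00512, edgeR). LUM, a proteoglycan of collagen fibrils, fell to 15.3 and 11.8 CPM in the PIP4K2B knockdown, against 33.7 and 28.5 CPM in the PIP4K2A knockdown (-1.13 ± 0.13, adjusted p = 0.000855). COL6A3 fell by 0.63 and COL1A1, the main fibrillar collagen chain of bone, by 0.72 on the log2 scale (adjusted p = 0.00626 and 0.0184). So COL1A1 of type I and COL3A1 of type III collagen went in opposite directions between the same lines.

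Of 28 laminins and integrins 2 rose and 5 fell, beside 1.18% of all genes called higher and 1.51% called lower. Besides LAMA3, ITGB4, a subunit of the integrin that binds laminin in hemidesmosomes, was lower, at 16.3 and 17.03 CPM in the PIP4K2B knockdown and 31.0 and 38.4 CPM in the PIP4K2A knockdown (-0.998 ± 0.16, adjusted p = 0.00694, edgeR).

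Of 29 matrix proteases and inhibitors 3 rose and 3 fell, beside 1.18% of all genes called higher and 1.51% called lower. MMP3, stromelysin, was at 17.8 and 17.1 CPM in the PIP4K2B knockdown and 9.53 and 8.61 CPM in the PIP4K2A knockdown (1.01 ± 0.12, adjusted p = 0.00126, edgeR), opposite to MMP13. MMP2, a gelatinase, was at 134 and 142 CPM in the PIP4K2B knockdown and 230 and 224 CPM in the PIP4K2A knockdown (-0.65 ± 0.09, adjusted p = 0.00398). ADAMTS12, another protease, was at 200 and 208 CPM in the PIP4K2B knockdown and 147 and 141 CPM in the PIP4K2A knockdown (0.57 ± 0.08, adjusted p = 0.00309). Across the matrix and adhesion genes named here, SPARC, COL6A3, COL1A1, ITGB4 and MMP2 lost the call without 1 of the libraries (PIP4K2A knockdown replicate 2 or either PIP4K2B replicate), at adjusted p from 0.051 to 0.16, and SPARC and ADAMTS12 with ribosomal protein gene scaling, at adjusted p of 0.145 and 0.069.

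Of 45 receptor tyrosine kinases and ligands tested, 0 rose and 5 fell, beside 1.51% of all genes called lower, and the list's median was 0.08. NTRK3 was at 2.79 and 2.99 CPM in the PIP4K2B knockdown and 12.9 and 12.8 CPM in the PIP4K2A knockdown (-2.09 ± 0.13, adjusted p = 9.91e-06, edgeR). PDGFRA, a receptor for platelet-derived growth factors, was at 10.2 and 9.01 CPM in the PIP4K2B knockdown and 18.3 and 17.4 CPM in the PIP4K2A knockdown (-0.83 ± 0.13, adjusted p = 0.00733). ROR1 and ROR2, receptors for WNT5A, and the collagen receptor DDR1 fell by 0.72, 0.67 and 0.61 on the log2 scale. PDGFRA, ROR1, ROR2 and DDR1 each lost the call without at least 1 of the 4 libraries, at adjusted p from 0.0505 to 0.229, and NTRK3 kept it in each case.

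NOTCH signalling had 2 rises and 2 falls among 25 genes, beside 1.18% of all genes called higher and 1.51% called lower. Besides NOTCH3, the target gene HES7 rose, at 1.06 and 1.44 CPM in the PIP4K2B knockdown and 0.439 and 0.357 CPM in the PIP4K2A knockdown (1.70 ± 0.35, adjusted p = 0.0278, edgeR), and MAML2, a co-activator of NOTCH, fell to 20.8 and 21.99 CPM in the PIP4K2B knockdown, against 40.5 and 37.2 CPM in the PIP4K2A knockdown (-0.80 ± 0.14, adjusted p = 0.0128). TGF-beta and BMP signalling had 4 rises and 2 falls among 37, beside the same 1.18% and 1.51%. LTBP1, which tethers latent TGF-beta to the matrix, was at 33.6 and 33.7 CPM in the PIP4K2B knockdown and 62.6 and 66.5 CPM in the PIP4K2A knockdown (-0.88 ± 0.08, adjusted p = 0.000296). TGFBI, a TGF-beta-induced matrix protein, was lower (-0.64 ± 0.09), and the co-receptor TGFBR3 was higher (0.82 ± 0.13), so genes of the pathway did not share a direction.

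WNT signalling had 1 rise and 2 falls among 38, with RNF43, a ligase that removes WNT receptors, lower by -1.07 ± 0.20 on the log2 scale (adjusted p = 0.018, edgeR). Among 45 guidance molecules the secreted netrin NTN4 (0.87 ± 0.11, adjusted p = 0.00172, edgeR) and 1 other gene rose, and the semaphorin SEMA6A (-0.98 ± 0.12, adjusted p = 0.00206, edgeR) fell. The calls of the WNT and guidance lists stand beside 2.68% of all genes called. HES7, MAML2, TGFBI, TGFBR3 and RNF43 lost the call without 1 or more of the 4 libraries, at adjusted p from 0.055 to 0.197, and HES7 also in DESeq2 (adjusted p = 0.0545) and with ribosomal protein gene scaling (adjusted p = 0.053).

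Of 33 p53 targets 3 rose and 0 fell, beside 1.18% of all genes called higher, and the list median was 0.09. TNFRSF10B, the death receptor DR5, was at 92.2 and 96.9 CPM in the PIP4K2B knockdown and 59.0 and 60.4 CPM in the PIP4K2A knockdown (0.73 ± 0.08, adjusted p = 0.000827, edgeR); the double knockdown (63.5 and 61.5 CPM) and the vector (61.4 CPM) were level with the PIP4K2A knockdown. GDF15, a secreted stress cytokine, was at 8.04 and 7.04 CPM in the PIP4K2B knockdown and 3.70 and 4.43 CPM in the PIP4K2A knockdown (0.96 ± 0.19, adjusted p = 0.0241), and the kinase PLK2 at 209 and 205 CPM against 160 and 142 CPM (0.52 ± 0.08, adjusted p = 0.00507). Of 34 genes of G1/S and DNA replication 3 rose and 0 fell, beside 1.18% of all genes called higher. Among the 3 was MCM7, a subunit of the replicative helicase. It was at 366 and 369 CPM in the PIP4K2B knockdown and 221 and 258 CPM in the PIP4K2A knockdown (0.68 ± 0.13, adjusted p = 0.02, edgeR). None of 32 genes of G2/M passed, beside 2.68% of all genes called.

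Of 44 lysosome and autophagy genes 1 rose and 1 fell, beside 2.68% of all genes called. The rise was that of MITF, a transcription factor of the MiT/TFE family, at 46.4 and 42.1 CPM in the PIP4K2B knockdown and 25.5 and 24.2 CPM in the PIP4K2A knockdown (0.89 ± 0.10, adjusted p = 0.000928, edgeR). Single falls were found for C3 among 26 complement and MHC class I genes, for the antiviral GTPase MX2 (-1.73 ± 0.40, adjusted p = 0.0439) among 32 interferon-stimulated genes, and for the ketosteroid reductase AKR1C1 (-0.9997 ± 0.16, adjusted p = 0.00701) among 25 metallothioneins and NRF2 targets; with 2.68% of all genes called, 1 call in a list of this size is near the share over all genes. GDF15, PLK2, MCM7, C3, MX2 and AKR1C1 lost the call without 1 or more of the 4 libraries, at adjusted p from 0.0501 to 0.27; PLK2 also did so with ribosomal protein gene scaling (adjusted p = 0.194) and MX2 in DESeq2 (adjusted p = 0.0875).

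With 2.68% of all genes called, a short list is near that share with few calls or none. Of the 35 gene lists, 23 had at least 1 call and 12 had none. The 12 were the other phosphoinositide enzymes, cholesterol synthesis, NF-kB targets, immediate early genes, G2/M, cytosolic ribosomal proteins (0 of 79), nuclear-encoded oxidative phosphorylation (0 of 63), mitochondrially encoded mRNAs (0 of 13), hnRNPs (0 of 26), core spliceosome (0 of 38), heat shock chaperones and nucleotide excision repair (0 of 29). Among SR proteins and other splicing regulators 1 of 42 rose and 0 fell, beside 1.18% of all genes called higher. List medians ran from -0.14 to 0.25 on the log2 scale, against 0.01 for all genes tested, and 34 of 35 were within 0.2 of zero. Some lists without a call still leaned to 1 side. Log2 fold changes were positive for 76 of 79 cytosolic ribosomal protein genes (median 0.15, SD 0.12 over the library pairs) and 29 of 32 G2/M genes (0.14, SD 0.05). They were positive for 7 of 31 cholesterol synthesis genes (-0.14, SD 0.05) and for 10818 of all 21098 genes. After UV they were positive for 57 of 79 ribosomal protein genes (median 0.22), 17 of 32 G2/M genes (0.0075) and 13 of 31 cholesterol synthesis genes (-0.019). Over all 21098 genes, 9943 were positive after UV.

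**Figure D3:**
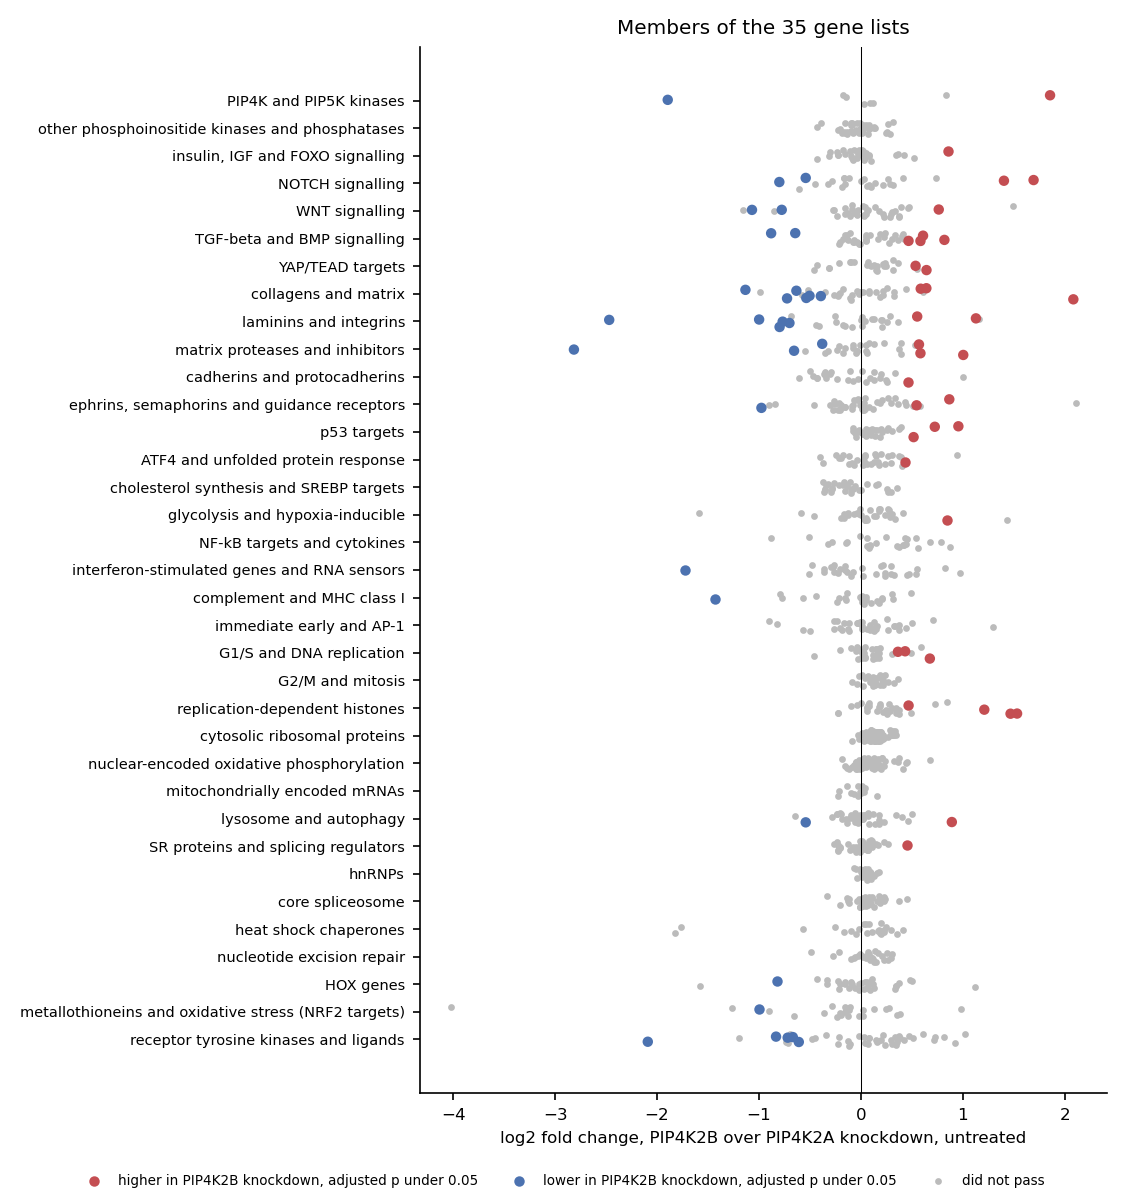
Log2 fold change of the PIP4K2B over the PIP4K2A knockdown (untreated) for each tested member of the 35 gene lists, 1 row per list, with points spread vertically for legibility; red points were called higher and blue points lower in the PIP4K2B knockdown, grey points did not pass. Calls stand on both sides in the matrix rows (3 higher and 6 lower for collagens and matrix), to the left alone for receptor tyrosine kinases (5 lower) and to the right alone for histones (4 higher).

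Of 17 epithelial markers tested 5 fell and 0 rose, beside 1.51% of all genes called lower; 6 of the 17 had a positive log2 fold change, and the median was -0.34. KRT14, a basal keratin, was at 0.971 and 1.06 CPM in the PIP4K2B knockdown and 6.54 and 7.89 CPM in the PIP4K2A knockdown (-2.77 ± 0.20, adjusted p = 2.9e-05, edgeR); the others were LAMA3, ITGB4, EPCAM (-0.95 ± 0.18, adjusted p = 0.0186) and KRT5 (-1.07 ± 0.24, adjusted p = 0.0357). The summed epithelial list was at 699 and 659 CPM in the PIP4K2B knockdown and 757 and 848 CPM in the PIP4K2A knockdown, and CDH1, the defining epithelial cadherin, at 3.52 and 3.03 CPM against 4.52 and 4.14 CPM. The part of these markers in the fall of LAMA3 and ITGB4 was not tested.

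Of 14 osteoblast lineage markers listed, 7 were tested. Of these 7, RUNX2 and COL1A1 fell and none rose, beside 1.51% of all genes called lower. RUNX2, the transcription factor that starts the osteoblast lineage, was at 30.8 and 28.8 CPM in the PIP4K2B knockdown and 55.9 and 56.5 CPM in the PIP4K2A knockdown (-0.85 ± 0.09, adjusted p = 0.000521, edgeR); the double knockdown (60.1 and 58.2 CPM) and the vector (58.7 CPM) were level with the PIP4K2A knockdown. Of 18 mesenchymal markers 1 rose and 3 fell, beside 1.18% of all genes called higher and 1.51% called lower. The falls included SNAI2, a repressor of epithelial genes (-0.56 ± 0.09, adjusted p = 0.00675, edgeR). None of 6 blood or 5 endothelial markers passed, beside 2.68% of all genes called. Of 8 neural markers MAP2 fell (-1.03 ± 0.13, adjusted p = 0.00158, edgeR). ITGB4, EPCAM, KRT5, COL1A1 and SNAI2 lost the call without 1 or more of the 4 libraries, at adjusted p from 0.0602 to 0.247, and KRT5 also in DESeq2 (adjusted p = 0.114), with 6 untreated knockdown libraries or with only the libraries compared (adjusted p from 0.0608 to 0.0776, edgeR).

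The double knockdown carries hairpins against both genes, and its untreated libraries were set between the single lines gene by gene. For 445 of the 566 called genes (78.6%) its mean log2 CPM was closer to that of the PIP4K2A knockdown or beyond it, and for 121 closer to that of the PIP4K2B knockdown or beyond it. The share was 76.2% for genes higher and 80.5% for genes lower in the PIP4K2B knockdown, and 60.2% over all genes tested. For 293 of the 566 the double knockdown lay beyond the PIP4K2A knockdown, as it did for NLRP2, GTSF1, ADD2, HTR2A and MOB3B. These positions share the single-knockdown libraries with the comparison and are a description.

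The same lines were also sequenced after UV, in 4 other libraries. There the PIP4K2B and PIP4K2A knockdowns differed in 2866 genes (13.6%; edgeR). Of the 566 genes called in untreated cells, 562 had the same sign after UV, 466 also passed (82.3% of the 566 and 16.3% of the 2866), and 0 passed with the opposite sign. Both contrasts came from the same fit of 12 libraries and share each gene's estimate of the spread, so these tests are not independent. The libraries of the lines did not overlap after UV for 551 of the 566, against 53.9% of all genes. All 15 largest rises and 15 largest falls passed after UV with the sign they had in untreated cells.

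COL3A1 after UV was at 64.1 and 62.9 CPM in the PIP4K2B knockdown and 13.1 and 18.7 CPM in the PIP4K2A knockdown, a log2 fold change of 2.11, close to the 2.09 in untreated cells. NLRP2 was at 0.528 and 0.689 CPM against 9.78 and 9.73 CPM, a log2 fold change of -3.89. STARD7 was at 290 and 296 CPM in the PIP4K2B knockdown and 51.1 and 71.2 CPM in the PIP4K2A knockdown, a log2 fold change of 2.38 beside the 1.29 in untreated cells. The difference between these contrasts, 1.09 ± 0.18, did not pass (adjusted p = 0.555, edgeR).

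No gene passed the test of the difference between the UV and the untreated contrast (0 of 21098; 1827 at an unadjusted p under 0.05; smallest adjusted p = 0.555, edgeR), while DESeq2 called 6, and edgeR called 317 with no filter on low counts and 873 without PIP4K2A knockdown UV replicate 2. The UV contrast itself rested on its libraries: edgeR called 381 genes without PIP4K2B knockdown UV replicate 1, 770 without replicate 2, 5029 without PIP4K2A knockdown UV replicate 1, 4806 without replicate 2, and 7 with only the 4 UV libraries fitted. The PIP4K2A knockdown UV replicates differed most of the 6 pairs of knockdown replicates, with a chi-square per degree of freedom of 94.3 over genes, against 1.80 to 21.1 for the others.

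**Figure D4:**
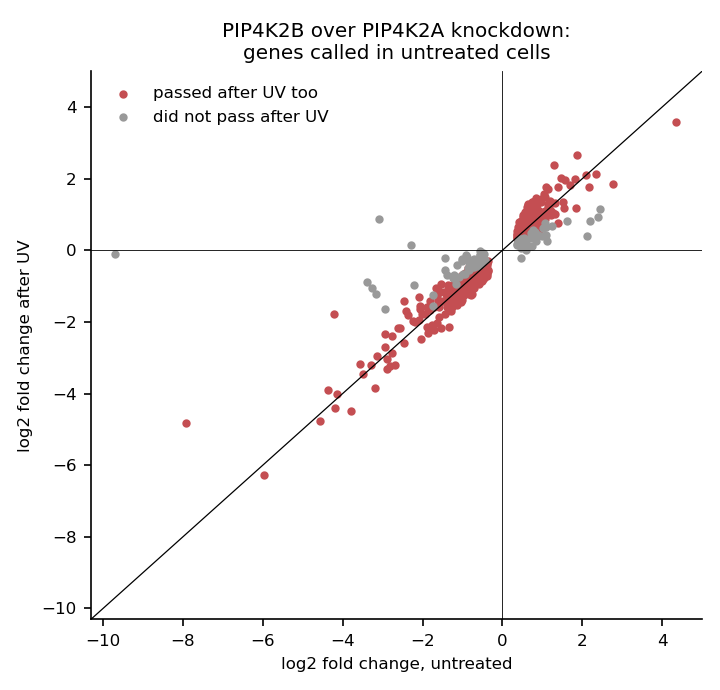
Log2 fold change of the PIP4K2B over the PIP4K2A knockdown in untreated cells (x axis) and after UV (y axis) for the 566 genes called in untreated cells, with the line of equality; red points (466) passed after UV too and grey points did not. All but 4 genes lie in the quadrants of equal sign.

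Along the genome, the median log2 fold change per chromosome ran from -0.06 on X to 0.07 on chromosome 19. Over 20152 windows of 20 neighbouring tested genes, the 5th and 95th percentiles of the window medians were -0.20 and 0.22, and 700 windows exceeded 0.3 in size. The longest run of such windows lay on chromosome 7, from CDK14 to UPK3BL1 (90466424 to 102642869, GRCh38). Of its 157 genes 145 were higher in the PIP4K2B knockdown, with a median of 0.38 and an SD of 0.06 over the library pairs, and 16 were called higher and 0 lower (10.2%, beside 2.68% of all genes). After UV the median was 0.35, but the run was uneven: in the first 23 of its 138 windows, whose untreated medians were 0.34 to 0.45, the UV medians were 0.01 to 0.09, and in the others they were 0.18 to 0.68. MCM7 lies in it, as do COPS6, a subunit of the COP9 signalosome, at 152 and 141 CPM in the PIP4K2B knockdown and 110 and 112 CPM in the PIP4K2A knockdown, and VGF, a neurosecretory protein, at 107 and 114 CPM against 48.7 and 63.2 CPM (1.04 ± 0.15, adjusted p = 0.00349, edgeR). The median of the double minus the PIP4K2A knockdown over these genes was -0.23, so the double knockdown was below both single lines there. The ends of the run are where the window median crossed 0.3. Shorter runs in the same direction lay beside it, among them PHTF2 to DBF4 (77798792 to 87909541, median 0.30) and NAPEPLD to CCDC71L (103099776 to 106660996, median 0.31).

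**Figure D5:**
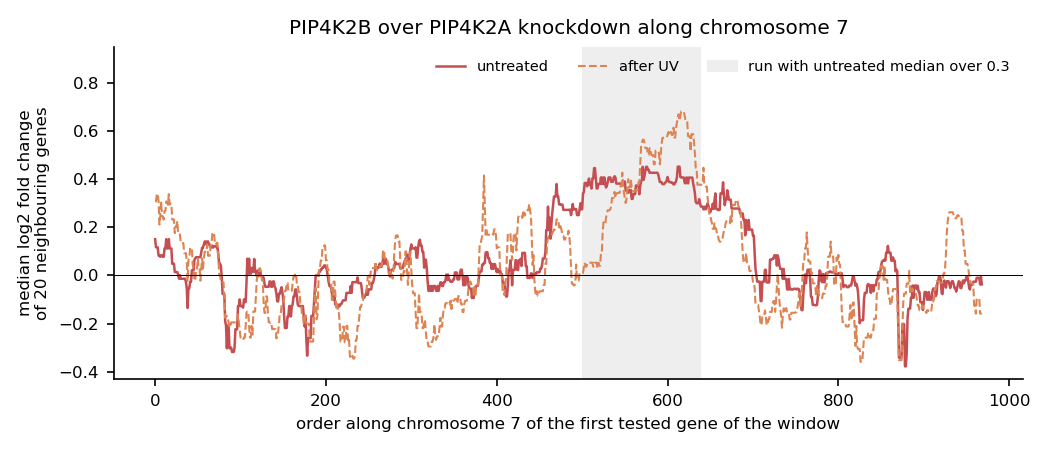
Median log2 fold change (PIP4K2B over PIP4K2A knockdown) of windows of 20 neighbouring tested genes, by gene order along chromosome 7, in untreated cells (solid) and after UV (dashed); the grey band is the longest run whose untreated window medians exceed 0.3. The solid line stays near 0.4 through the run (median 0.38 over 157 genes). It is also raised on both sides of the run, and is near 0 over most of the rest of the chromosome.

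Further runs lay on chromosome 1 at 633696 to 2185395, where 56 of 60 genes were higher (median 0.39, 8 called higher and 0 lower), and on chromosome 6 from CDKN1A to CCND3, where 39 of 43 were lower (median -0.34, 0 called higher and 7 lower). The calls were 13.3% of the genes of the first run and 16.3% of those of the second, beside 2.68% of all genes. The first includes AGRN, a heparan sulphate proteoglycan, at 819 and 904 CPM in the PIP4K2B knockdown and 511 and 663 CPM in the PIP4K2A knockdown, and SSU72, a phosphatase of the RNA polymerase II tail (0.61 ± 0.09, adjusted p = 0.00398, edgeR). Its median transcript GC content was 59.7%, that of the chromosome 7 run 53.5% and that of all genes 49.4%, and its library pairs had an SD of 0.17. The Spearman correlation of the log2 fold change with transcript GC over 20605 genes was 0.10 in untreated cells and 0.37 after UV; the part of GC content in these runs was not tested.

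A run on chromosome 5 from TMCO6 to HDAC3 (140639427 to 141636870) covers the clustered protocadherins, adhesion molecules of which each gene is expressed from its own promoter. Its 70 genes had a median of -0.46, with 53 lower in the PIP4K2B knockdown, and all 8 called genes were in the protocadherin loci and lower. The 8 were 11.4% of the genes of the run, beside 2.68% of all genes. PCDHB13 was at 3.44 and 3.86 CPM in the PIP4K2B knockdown and 8.22 and 8.58 CPM in the PIP4K2A knockdown (-1.14 ± 0.14, adjusted p = 0.0016, edgeR), PCDHB14 at 3.52 and 2.90 CPM against 7.21 and 6.75 CPM, and PCDHA10 at 1.44 and 1.70 CPM against 4.12 and 3.62 CPM. These genes are close copies, and the alpha and gamma genes share their last exons, so single counts are uncertain. Not every run held calls on 1 side alone. On chromosome 1 at 1598012 to 4019508 (median 0.32), 0 of 47 genes were called. From PPP2R2A to PPP2CB on chromosome 8 (median 0.31), 8 were called higher and 1 lower. The runs were picked by their values and carry no test. Of the genes named in them, COPS6, MCM7, AGRN, SSU72, PCDHA10 and PCDHB14 lost the call without 1 or more of the 4 libraries, at adjusted p from 0.059 to 0.214, and COPS6 and AGRN with ribosomal protein gene scaling, at adjusted p from 0.058 to 0.161.

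The deposited length of a gene, in bases, is the mean of its transcripts weighted by their abundance, and was the isoform readout of the files. No gene of 11539 passed for length (347 at an unadjusted p under 0.05; smallest adjusted p = 0.201, limma). The smallest p-values included those of GALNT5, an enzyme that starts O-glycosylation, at 10344 bases in both PIP4K2B knockdown libraries and 8370 and 7902 bases in the PIP4K2A knockdown libraries, and of LINC00665, at 1402 and 1378 bases in the PIP4K2B knockdown and 1727 and 1761 bases in the PIP4K2A knockdown. LINC00665 was thus both lower in level and shorter in the PIP4K2B knockdown, but neither length difference passed.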

How the data were processed

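Libraries were directional and made after removal of ribosomal RNA, per the labels' protocols. STAR, SAMtools, RSEM and GRCh38 are named in the submitters' processing notes. Their roles, the annotation release and whether counting used strand are not given in these sources, so reads of overlapping antisense genes may not be told apart. Per the file headers the deposited values are expected counts and TPM, both estimated per gene with RSEM's column names, and a length in bases. The tables list 60666 genes; symbols were matched for 60437, and positions came from GENCODE release 29 for 58420.

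The rounded expected counts went into edgeR 4.0.16 (R 4.3.3), with filterByExpr at a minimum count of 10, TMM scaling and quasi-likelihood fits of group means over 12 knockdown libraries in 6 groups, with 6 residual degrees of freedom and a biological coefficient of variation of 11.7%. P-values were adjusted by Benjamini-Hochberg over all 21098 genes. Lengths were tested with limma 3.58.1 on log2 length for genes of at least 100 mean counts. DESeq2 1.42.0 and other settings were alternatives. Empty-vector untreated replicate 1 (1.28 M counts, 14.6% mitochondrial) was not used. No replicate pair agreed within sampling noise. CPM values in the text are expected counts over the library total; fold changes and the position of the double knockdown use TMM-scaled libraries.

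Named by rule were the PIP4K2 genes, the 15 largest rises and falls among called genes averaging 5 CPM or more in the 4 libraries, without overlap, and up to 4 called members per list. KRT5, MMP2, ROR2, VGF, COPS6, AGRN, SSU72, GALNT5, the protocadherins and the marker genes VIM, KRT8, SP7 and CDH1 were named after their values were seen. The comparison, the members and the lists were chosen with earlier results of these data known. Some genes are not reported here.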

Additional observations from a re-analysis of the deposited data

How the results depend on the processing

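Counts of genes called between the PIP4K2B and PIP4K2A knockdowns in untreated cells were 566 in the fit reported and 984 with no filter on low counts. In an alternative chosen after seeing the data they were 1507 without both PIP4K2A knockdown UV libraries. They were 3 with all 16 libraries, which include empty-vector untreated replicate 1 of 1.28 M counts. With each of the 4 libraries left out in turn they ran from 121 to 273; the arm then has a lone library, assumed to vary like the other groups. After UV the count of 2866 became 11 with all 16 libraries and 7 with only the libraries compared, and ran from 381 to 5029 with a library left out. The count of 0 for the difference between these contrasts became 317 with no filter and 6 in DESeq2, and ran from 0 to 873 with a library left out; for length it was 0 in every setting run. Replicate numbers are shared across groups, but deviations of same-numbered libraries correlated from -0.41 to 0.452 over 15 pairs of groups. The correlation was 0.431 for the PIP4K2B and PIP4K2A knockdowns in untreated cells and 0.33 after UV, a hint of pairing from the data; with 2 numbers per group and no label that gives them a meaning, the pairing is not established. With the replicate block 391 genes were called in untreated cells, 2474 after UV and 0 for the difference and for length. The other settings left the untreated count within 1.5 times of 566: RLE size factors 556, ribosomal protein gene scaling 504, CPM above 1 in 2 libraries 637, DESeq2 738 (389 higher and 349 lower), only the 4 libraries 546, 15 libraries 713 and, also chosen after seeing the data, 6 untreated knockdown libraries 706. No called gene had overlapping libraries between the lines, so a change of sign was hardly possible in these settings. All 71 called genes that the text names kept their sign in each setting run. Calls lost among them numbered 68 with all 16 libraries, 7 with ribosomal protein gene scaling, 3 in DESeq2, 3 with the replicate block (KRT5, ROR2 and MX2, adjusted p = 0.0571, 0.0509 and 0.0741), and 17, 14, 30 and 25 without PIP4K2A knockdown replicate 1 and 2 and PIP4K2B knockdown replicate 1 and 2. With 2 libraries per group, small differences were not detectable.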
